A study of Caenorhabditis elegans with 66 samples.

Results

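Argonaute proteins hold a small RNA and use it to find a complementary transcript. *C. elegans* has an expanded family of them, and a selection of 10 genes of that family is described here. The 10 genes encode Argonautes, other than PRG-1, HRDE-1 and NRDE-3, that bind endogenous small RNAs in the germline or take part in RNAi. They are *csr-1*, *wago-1*, *wago-4*, *ppw-1*, *ppw-2*, *sago-1*, *sago-2*, *alg-3*, *alg-4* and *ergo-1*, chosen by name from the 46740 genes and other features counted in each table, and all 10 had enough counts to be tested in both comparisons. Within the pathway, primary Argonautes such as ERGO-1, ALG-3 and ALG-4 carry 26G siRNAs, and their binding calls in RNA-dependent RNA polymerases that make 22G siRNAs on the target. The 22G siRNAs are then taken up by secondary Argonautes. WAGO proteins use them to silence, while CSR-1 uses them on transcripts that the germline expresses and protects these from silencing.

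Both comparisons used whole animals grown at the same temperature on a bacterial lawn. In the first, polyA-selected RNA was sequenced from wild-type animals (columns of strain SX1316) and from *rpb-9* (*mj261*) mutants (SX1902), with 3 libraries of each. The *mj261* allele places a premature stop codon in the gene of the RNA polymerase II subunit RPB-9, and it came from a mutagenesis screen on the strain that carries the piRNA sensor, a germline *gfp* transgene silenced through the piRNA pathway. In the second, ribosomal RNA-depleted (Ribo-Zero) RNA was sequenced from wild-type animals (SX1316) and from *prg-1* (*n4357*) mutants (SX1888), which lack the Piwi Argonaute that binds piRNAs, again with 3 libraries of each. The files do not pair strains with genotypes, so the strain that both tables share was taken as wild type. The study describes the sensor in wild-type and *rpb-9* animals, and reads were counted on it in all 12 libraries. Whether the few sensor reads of wild type came from the endogenous genes whose sequence it carries was not tested. Each mutation is represented by a single strain. The labels do not say whether the libraries of a genotype came from separate cultures, so the p-values measure only the spread between these libraries. The stage of the animals was not given in the sources used here.

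Between 24089119 and 36206855 counts per polyA library and between 6099620 and 9881132 per Ribo-Zero library fell on genes. Ribosomal RNA genes held 0.508% to 7.93% of the polyA counts and 34.2% to 48.4% of the Ribo-Zero counts. The piRNA sensor rose in both mutants, by a log2 fold change of 5.80 in *rpb-9* and 2.56 in *prg-1*. The *rpb-9* gene had 37.3, 44.7 and 47.8 CPM (counts scaled so that libraries of different depth can be compared) in wild type and 41.6, 26.3 and 24.9 in *rpb-9* mutants, so the first mutant library lay within the wild-type range. *prg-1* had 160.2, 163 and 176 CPM in wild type and 59.7, 53.8 and 59.5 in *prg-1* mutants. Some libraries stood apart from the rest of their group. The first *rpb-9* polyA library had 30253 CPM over 9 intestine genes, against 51699 and 59693 in the other *rpb-9* libraries. The Ribo-Zero libraries numbered 3 of both genotypes had 38.4 (wild type) and 22.6 (*prg-1*) CPM over 20 sperm genes, against 62.4 to 148 in the other Ribo-Zero libraries. Values without these libraries are given where they change a call or move a value widely.

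The members whose log2 fold changes were farthest from 0 in *rpb-9* mutants were *alg-3* and *alg-4*, a pair of close paralogs that act redundantly with 26G siRNAs during spermatogenesis. *alg-3* (WBGene00011910) lies on chromosome IV of WBcel235 (also called ce11) from 11704246 to 11708264 on the plus strand, and *alg-4* (WBGene00006449) on chromosome III from 9887209 to 9891424 on the minus strand. Their exons were 91.4% identical over 3233 aligned bases, which raises the question whether their reads can be told apart. No window of 50 bases, the length of the reads, from the exons of either gene occurred anywhere else in the genome. The longest run of bases that the exons of both genes share is 42 bases long and is shown because it is shorter than a read. It lies at chrIV:11706456-11706497 on the plus strand in *alg-3* and at chrIII:9888976-9889017 on the minus strand in *alg-4*.
Longest run shared by the exons: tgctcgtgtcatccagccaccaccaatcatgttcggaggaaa
Since the authors allowed mismatches, a read may still have matched both genes, and 1 of the 12 libraries had a fractional count in each. The 250 bases before the starts of both genes are shown to compare the paralogs. The start was the outermost one in the reference annotation or the deposited exons, which is 11704246 for *alg-3* and, from the deposited exons, 9891437 for *alg-4*. The capitals mark the runs of at least 10 bases that both windows share.
*alg-3*, chrIV:11703996-11704245, plus strand: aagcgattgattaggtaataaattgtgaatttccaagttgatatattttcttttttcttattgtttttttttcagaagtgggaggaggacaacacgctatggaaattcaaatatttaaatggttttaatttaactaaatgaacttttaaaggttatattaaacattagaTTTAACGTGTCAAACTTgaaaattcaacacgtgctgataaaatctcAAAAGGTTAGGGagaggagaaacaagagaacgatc
*alg-4*, chrIII:9891438-9891687, minus strand: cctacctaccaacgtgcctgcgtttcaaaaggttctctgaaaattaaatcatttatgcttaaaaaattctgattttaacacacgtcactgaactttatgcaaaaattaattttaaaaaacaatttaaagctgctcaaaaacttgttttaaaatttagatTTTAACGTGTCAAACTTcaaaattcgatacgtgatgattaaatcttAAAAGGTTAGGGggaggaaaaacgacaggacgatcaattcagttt
The windows share 2 such runs in the same order, TTTAACGTGTCAAACTT of 17 bases and AAAAGGTTAGGG of 12 bases. Counted from these starts, the longer run begins 81 bases before that of *alg-3* and 91 before that of *alg-4*, and the shorter run begins 35 and 45 bases before the starts. On either strand, each run was found in 2 of the 19663 windows of this length before protein-coding genes (0.0102%), those of *alg-3* and *alg-4* from which the runs were taken. A shared run is a description of these windows and not a binding site. Whether the runs bear on the levels of the genes was not tested.

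In polyA libraries, *alg-3* received 7, 15 and 7 counts without the mutation and 63, 89 and 85 in *rpb-9* mutants. These were 0.317, 0.538 and 0.266 CPM, scaled with TMM factors, in wild type and 1.89, 2.72 and 2.38 in *rpb-9*. All 3 mutant libraries lay above all 3 wild-type libraries. The log2 fold change was 2.61 (standard error [SE] 0.31, adjusted p = 0.000536, quasi-likelihood test of edgeR, adjusted after Benjamini and Hochberg over all genes tested). *alg-4* received 7, 10 and 6 counts without the mutation and 68, 61 and 77 with it, or 0.301 ± 0.067 and 2.02 ± 0.145 CPM (SD, n = 3). Its groups did not overlap either, and its log2 fold change was 2.73 (SE 0.27, adjusted p = 0.000235). Both genes reached the filter of 10 counts in 3 libraries through the *rpb-9* libraries, and a gene that is tested on those terms had to be higher there. Without the filter, the log2 fold changes were 2.63 (adjusted p = 4.03e-13) and 2.76 (adjusted p = 6.68e-13) in edgeR's test. These lower p-values are not particular to the pair. For *wago-4* the adjusted p of the same test went from 0.000284 to 1.06e-21 without the filter, at log2 fold changes of −1.23 and −1.20. They are therefore not read as stronger evidence. Without the first *rpb-9* library they were 2.77 and 2.76. With 2.02 to 2.33 CPM on average in *rpb-9*, both remained the lowest of the 10 genes.

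**Figure D1:**
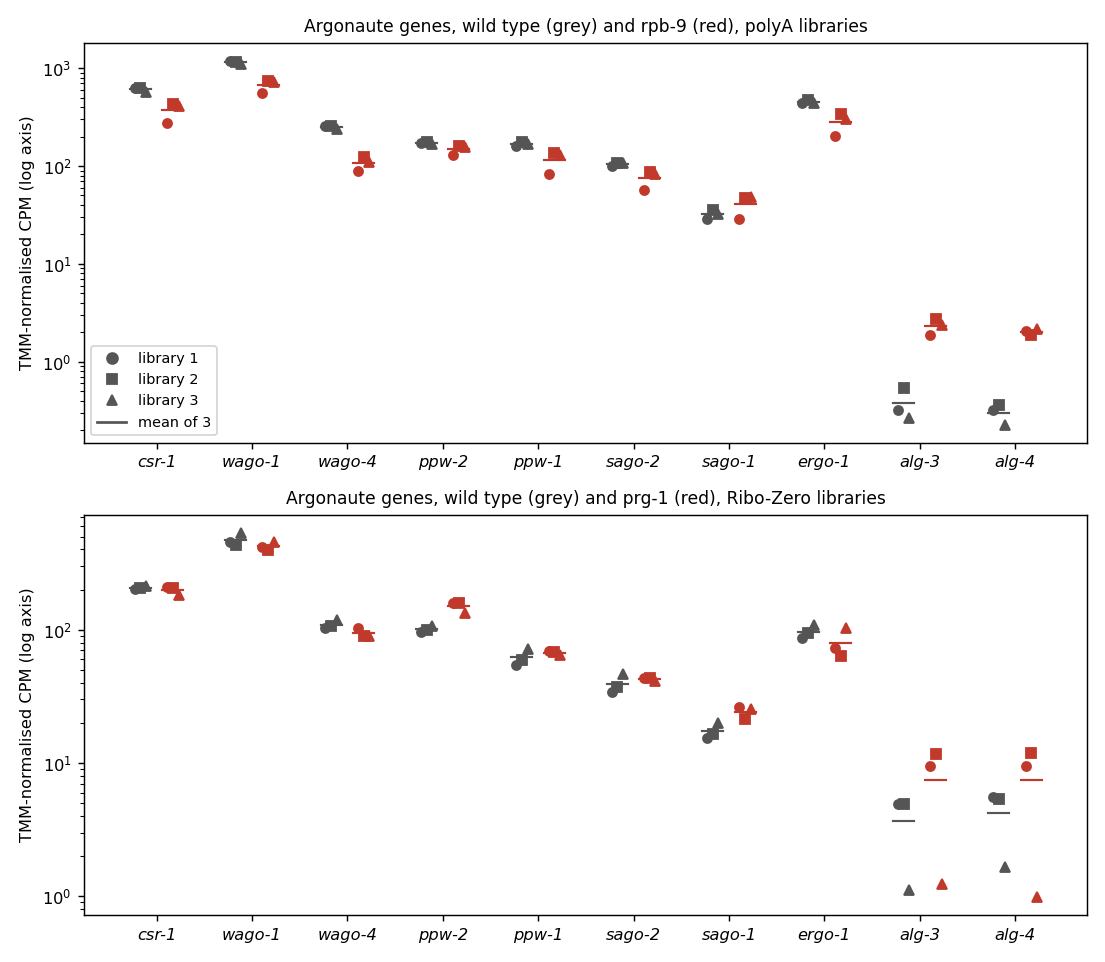
TMM-normalised CPM (log axis) of the 10 Argonaute genes in each library, with wild type in grey, the mutant in red, a symbol for each library number and a line at the mean of 3. In polyA libraries (top) *alg-3* and *alg-4* sat at 0.228 to 0.538 CPM in wild type and at 1.87 to 2.72 in *rpb-9*, while in Ribo-Zero libraries (bottom) both were at 0.992 to 1.67 CPM in the third library of either genotype.

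Sperm genes had higher levels in the same libraries. Of 20 sperm genes (major sperm protein, *spe*, *gsp* and *ssp* genes among them), 17 were tested in polyA libraries. At an adjusted p under 0.01, 11 were higher and 2 lower in *rpb-9*, where 18.3% of all genes were higher and 11.1% lower. Of these 11, 6 had under 10 counts in at least 1 wild-type library and so passed the filter with the help of the *rpb-9* libraries. Without the filter all 20 were tested, and 13 were higher and 2 lower, against 4151 higher and 2038 lower of the 27052 genes tested. The median log2 fold change of the sperm genes was then 2.31, against 0.40 over all genes tested. With the filter, the log2 fold change was 3.62 for *spe-11*, 3.54 for *ssp-16* and 3.12 for the major sperm protein gene *msp-142*. The genes *msp-10*, *msp-36*, *msp-56*, *msp-142*, *gsp-3* and *gsp-4* had fractional counts, which arise where reads match several places and are split. Their values may hold reads of similar genes, so their calls are not independent of each other. *spe-44*, which encodes a transcription factor of early spermatogenesis, was lower by the same test, with a log2 fold change of −1.07, as was *spe-41*, a sperm calcium channel gene (−1.42). The summed level of the 20 genes was 39.8 to 44.8 CPM in wild type and 51.8 to 60.0 in *rpb-9*. Relative to 4 major sperm protein genes (*msp-10*, *msp-36*, *msp-56* and *msp-142*), the summed counts of *alg-3* and *alg-4* were 0.259, 0.278 and 0.22 in wild type and 0.178, 0.304 and 0.262 in *rpb-9*, so this ratio overlapped between genotypes. Of 9 genes of males, 3 were tested and 1 was higher (*swm-1*). The male neuron genes *pkd-2*, *cwp-1*, *cwp-2*, *cwp-3* and *cwp-5* had 0 to 0.183 CPM over the polyA libraries, and *cwp-1* and *cwp-2* were at 0 in all 3 of wild type. The summed level of the 9 ranged over 12 to 13.6 CPM in wild type and 17 to 19.5 in *rpb-9*. Whole animals were used, so more cells of a type and more RNA per cell cannot be told apart, here and in the results that follow. The part of sperm content in the change of *alg-3* and *alg-4* was not tested.

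In Ribo-Zero libraries, *alg-3* had 4.95, 4.92 and 1.11 CPM in wild type and 9.56, 11.6 and 1.24 in *prg-1*, and *alg-4* had 5.59, 5.33 and 1.67 in wild type and 9.44, 11.9 and 0.992 in *prg-1*. The third library of either genotype was lowest, and the groups overlapped. The fitted changes (log2) were 1.01 (SE 0.78, adjusted p = 0.49, edgeR) for *alg-3* and 0.81 (SE 0.78, adjusted p = 0.571, edgeR) for *alg-4*. With 1 library left out they lay between 0.56 and 1.51 for *alg-3* and between 0.32 and 1.33 for *alg-4*, lowest without the second *prg-1* library and highest without the third. Compared by library number, *alg-3* was higher in *prg-1* for all 3 numbers and *alg-4* for 2 of 3. With the number as a block the changes were 0.93 (adjusted p = 0.103, edgeR) and 0.65 (adjusted p = 0.276, edgeR). Without the libraries numbered 3 they were 1.10 (adjusted p = 0.00451, edgeR) and 0.96 (adjusted p = 0.0086, edgeR), and the adjusted p of *alg-3* and *alg-4* ranged up to 0.863 and 0.930 over the other alternatives. With 2 libraries of each genotype, 3 of 10 members (*alg-3*, *alg-4* and *ppw-2*) were higher at an adjusted p under 0.01, against 7.94% of the 11329 genes tested. A transcript was taken as misregulated where its adjusted p was under 0.01 and its log2 fold change lay outside −1 to 1. Only *alg-3* of the 10 met both criteria without the libraries numbered 3, where 7.08% of all genes were misregulated (4.25% misregulated and higher), against 0.119% with all libraries. The sperm genes followed the same libraries, with 0 of 16 tested called with all libraries and 8 of 16 higher at an adjusted p under 0.01 without the libraries numbered 3.

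**Figure D2:**
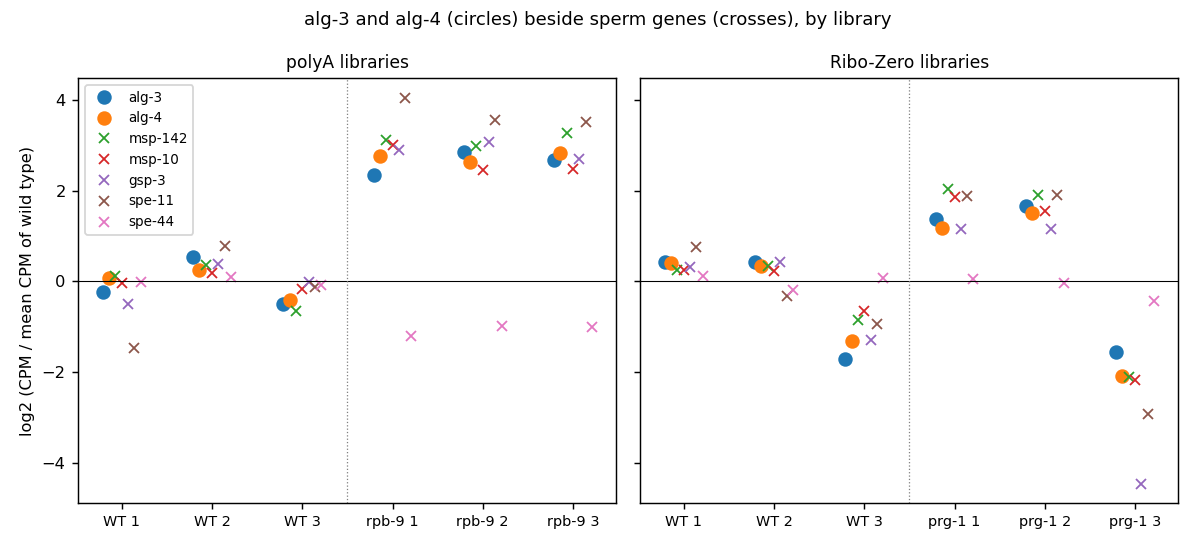
CPM of *alg-3* and *alg-4* (circles) and of 5 sperm genes (crosses) in each library, as the log2 ratio to the mean of the wild-type libraries of the same table. The circles rose with *msp-142*, *msp-10*, *gsp-3* and *spe-11* in the 3 *rpb-9* libraries and in the first 2 *prg-1* libraries and were low with them in both Ribo-Zero libraries numbered 3, while *spe-44* was lower in *rpb-9*.

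Of the other 8 Argonaute genes, 7 had a negative log2 fold change in *rpb-9* mutants, and 3 of these passed the test. By both criteria 3 of the 10 members were misregulated, *alg-3* and *alg-4* up and *wago-4* down, where 15.3% of the 14275 genes tested were misregulated, 13.8% higher and 1.49% lower. At an adjusted p under 0.01 alone, *csr-1*, *wago-1* and *wago-4* were lower, 3 of 10 members against 11.1% of all genes, and *alg-3* and *alg-4* were higher, 2 of 10 against 18.3%. All *rpb-9* libraries lay below all wild-type libraries for 7 members (27% of all genes) and above them for 2 (33.6% of all genes). The 7 include both *ppw-1* and *sago-2*, near copies whose values cannot be told apart. Each *rpb-9* value was scaled with TMM factors, under which the median change over all genes was 0.14 (log2). It was 0.047 with the size factors of DESeq2 and 0.40 with scaling by library size alone.

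Of the Argonautes that hold 22G siRNAs in the germline, WAGO-4, a Z granule protein required for the inheritance of RNAi, had the transcript with the largest decrease. *wago-4* (WBGene00010263; chromosome II, 12919551 to 12923377, plus strand) had 259, 258 and 238 CPM in wild type and 89.8, 125 and 109 in *rpb-9*. All mutant libraries lay far below the lowest wild-type library. The log2 fold change was −1.23 (SE 0.12, adjusted p = 0.000284, edgeR), and 1.19% of all genes tested had a lower one. It was −1.07 without the first *rpb-9* library and −0.98 with scaling by library size alone, which put it short of the fold threshold. The lowest log2 fold change was −0.97 among 17 oocyte genes and −1.19 among 18 genes of the mitotic and meiotic germline.

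*csr-1* (WBGene00017641; chromosome IV, 7957267 to 7962157, plus strand) had 628, 625 and 568 CPM in wild type and 272, 431 and 409 in *rpb-9*, without overlap. The log2 fold change was −0.71 (SE 0.17, adjusted p = 0.0088, edgeR). This call was near the threshold, with an adjusted p between 3.02e-08 and 0.0252 over the alternatives. It was lost when any of the 6 libraries other than the first *rpb-9* library was left out (adjusted p of 0.0123 to 0.0252, edgeR) and with scaling by library size (0.0129). Without the first *rpb-9* library the log2 fold change was −0.49 (adjusted p = 0.000681, edgeR). *wago-1* (WBGene00011061; chromosome I, 7235384 to 7238792, plus strand), which encodes a P granule Argonaute that silences transposons and other targets, had 1189, 1157 and 1109.8 CPM in wild type and 557, 739.8 and 717 in *rpb-9*. Its log2 fold change was −0.78 (SE 0.13, adjusted p = 0.00181, edgeR), and −0.62 without the first *rpb-9* library. *wago-1* shares 5.01% of its 50-base exon windows with *wago-2* and *wago-5*, so a small part of its counts may come from these genes.

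Set against *csr-1* in the same library, which needs no scaling factor, *wago-4* had 0.413, 0.413 and 0.419 counts per *csr-1* count in wild type and 0.33, 0.289 and 0.265 in *rpb-9*. The groups did not overlap, and the ratio was lower in each mutant library. In Ribo-Zero libraries the ratio was 0.515, 0.518 and 0.553 in wild type and 0.498, 0.437 and 0.492 in *prg-1*, again without overlap but closer together. No test was run on these ratios, and how often the ratios of other gene pairs lie apart was not counted.

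PPW-2, also called WAGO-3, is a germline Argonaute required for small RNA inheritance through sperm. In polyA libraries *ppw-2* (WBGene00004094; chromosome I, 5158511 to 5162232, minus strand) had 171, 175 and 166 CPM in wild type and 130.3, 160.4 and 157 in *rpb-9*. The groups did not overlap, but the log2 fold change of −0.19 (SE 0.10, adjusted p = 0.131, edgeR) missed the threshold, and it was −0.065 without the first *rpb-9* library and 0.057 with scaling by library size alone, so its direction depends on the scaling. In Ribo-Zero libraries *ppw-2* had 96.7, 99.6 and 107 CPM in wild type and 160.0, 159 and 134 in *prg-1*, all 3 mutant libraries above all wild-type libraries. The log2 fold change was 0.58 (SE 0.13, adjusted p = 0.0891, edgeR). Without the libraries numbered 3 it was 0.69 (adjusted p = 0.00117, edgeR), which passed the threshold for p but not that for the fold. So did the values with DESeq2 on all libraries (adjusted p = 0.00997) and without the third *prg-1* library (adjusted p = 0.00602, edgeR), and over the other alternatives the adjusted p ranged from 0.0609 to 0.35.

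*ppw-1*, needed for RNAi in the germline, and *sago-2*, which encodes a secondary Argonaute of RNAi, are near copies. *ppw-1* (WBGene00004093; chromosome I, 4185174 to 4189956, plus strand) shares 75.8% of its 50-base exon windows with *sago-2* (WBGene00018921; chromosome I, 618160 to 621490, plus strand), and *sago-2* shares 78.0% with other places, nearly all in *ppw-1*. The authors split reads that match several places into fractions, and no library had a whole number of counts for either gene. Their values therefore cannot be told apart. In polyA libraries *ppw-1* had 159, 178 and 167 CPM in wild type and 82.6, 136 and 130.2 in *rpb-9*, and *sago-2* had 99.9, 107 and 107 in wild type and 56.6, 87.2 and 83.2 in *rpb-9*. The log2 fold changes were −0.53 (SE 0.17, adjusted p = 0.0327, edgeR) and −0.46 (SE 0.15, adjusted p = 0.0342, edgeR), neither of which passed the test. Without the first *rpb-9* library they were −0.30 (adjusted p = 0.00481, edgeR) and −0.25 (adjusted p = 0.00682, edgeR), smaller but past it. Both also passed with DESeq2 (adjusted p = 0.00278 and 0.00336) and with no filter, and over all alternatives the adjusted p ranged up to 0.101 and 0.182. In Ribo-Zero libraries they were 0.12 for both, with overlapping groups.

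*sago-1* (WBGene00019666; chromosome V, 6303771 to 6308337, plus strand) encodes another secondary Argonaute of RNAi. It had 28.7, 35.2 and 32.2 CPM in wild type and 28.5, 47.5 and 48.0 in *rpb-9*. The first *rpb-9* library lay just below the wild-type range and the other 2 above it. The log2 fold change of 0.37 (SE 0.20, adjusted p = 0.151, edgeR) did not pass the test, and without the first *rpb-9* library it was 0.62 (adjusted p = 0.000565, edgeR), the lowest p among the alternatives, which reached 0.306. In Ribo-Zero libraries *sago-1* had 15.5, 16.4 and 19.9 CPM in wild type and 26.2, 21.3 and 25.5 in *prg-1*, without overlap, and its log2 fold change was 0.50 (SE 0.15, adjusted p = 0.155, edgeR).

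*ergo-1* (WBGene00019971; chromosome V, 1008803 to 1018352, plus strand) encodes the Argonaute that holds 26G siRNAs in oocytes and embryos. In polyA libraries it had 442, 475 and 444 CPM in wild type and 202, 337 and 299.6 in *rpb-9*, without overlap. Its log2 fold change of −0.70 (SE 0.17, adjusted p = 0.0107, edgeR) fell just short of the threshold for p and was −0.47 (adjusted p = 0.000858, edgeR) without the first *rpb-9* library. Over the alternatives the adjusted p lay between 5.92e-08 and 0.031. The 26G Argonaute genes of spermatogenesis, at 2.61 and 2.73, and that of oocytes and embryos thus had log2 fold changes of opposite sign. In Ribo-Zero libraries *ergo-1* had 87.1, 94.3 and 109 CPM in wild type and 72.5, 63.8 and 103 in *prg-1*, and the groups overlapped. Compared by library number, it was lower in *prg-1* for each number. Its log2 fold change there was −0.28 (adjusted p = 0.461, edgeR). It was −0.49 (adjusted p = 0.0316, edgeR) without the third *prg-1* library and −0.42 (adjusted p = 0.0161, edgeR) without both libraries numbered 3, still short of the threshold. Its exons overlap 22 exon bases of *pei-2* on the other strand, and no strand option is named for the counts.

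**Figure D3:**
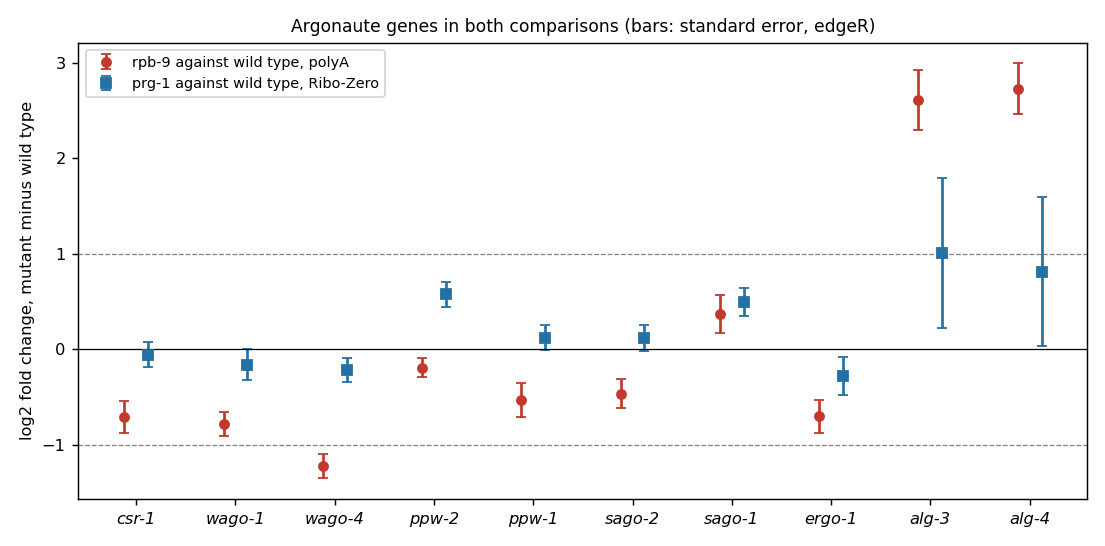
Log2 fold change of each Argonaute gene (mutant minus wild type) with its standard error (SE) from edgeR, for *rpb-9* in polyA libraries (red circles) and *prg-1* in Ribo-Zero libraries (blue squares), with dashed lines at 1 and −1. In *rpb-9*, *alg-3* and *alg-4* sit at 2.61 and 2.73 and *wago-4* at −1.23, and in *prg-1* the values lie between −0.28 and 1.01.

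In *prg-1* mutants, which lack the first step of piRNA silencing, 0 of the 10 members were misregulated in edgeR's test, where 0.119% of all genes were, and 0 with DESeq2, where 2.84% of all genes were. At an unadjusted p under 0.05, *ppw-2* and *sago-1* were higher, 2 of 10 members against 18.9% of all genes, while with the replicate number as a block *alg-3* passed too, 3 of 10 against 27.1% of all genes. *ppw-2* and *sago-1* were also the 2 members whose groups did not overlap with *prg-1* higher (12.7% of all genes). No member's groups were apart with *prg-1* lower (12.3% of all genes). *csr-1* had 200.8, 205 and 213 CPM in wild type and 208, 204 and 182 in *prg-1*, a log2 fold change of −0.058 (SE 0.13, adjusted p = 0.809, edgeR) whose sign changed with scaling by library size alone (0.055) and without the libraries numbered 3 (0.019). For *wago-1* the log2 fold change was −0.16 (SE 0.16), and for *wago-4* it was −0.21 (SE 0.12), neither past the test.

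The difference between the effect of *rpb-9* in polyA libraries and that of *prg-1* in Ribo-Zero libraries was tested in 1 model over the 12 libraries, in which mutant and library kit cannot be told apart. No member passed an adjusted p under 0.01, as 0.756% of the 14938 genes tested did. At an unadjusted p under 0.05 there were 6 of 10 members (17.2% of all genes), and each of the 6 was more negative in *rpb-9*. Among the 6 were both *ppw-1* and *sago-2*, whose values cannot be told apart. The lowest adjusted p was that of *wago-4* (difference −0.97, SE 0.18, adjusted p = 0.0137, edgeR), which was 0.00956 when the second *rpb-9* library was left out and at most 0.0832 over the alternatives. *ppw-2* followed, with a difference of −0.73 (SE 0.16, adjusted p = 0.0311, edgeR). The differences of *alg-3* and *alg-4* were 1.64 (SE 0.90) and 1.96 (SE 0.91), with adjusted p of 0.37 and 0.291 from edgeR.

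The levels of the 10 genes were compared with each other as TPM, transcript abundances that divide counts by exon length before scaling. In wild-type polyA libraries *wago-1* was highest with 489 ± 23.4 TPM (SD, n = 3). It was followed by *csr-1* with 222 ± 13.6, *ergo-1* with 161 ± 4.06 and *wago-4* with 97.8 ± 5.20 TPM. *ppw-1*, *ppw-2*, *sago-2* and *sago-1* came next with 72.9, 68.5, 47.3 and 13.5 TPM, and the ranges of neighbours in this order did not overlap. The places of *ppw-1* and *sago-2* rest on how their shared reads were split. *alg-3* and *alg-4* were last with 0.149 ± 0.055 and 0.112 ± 0.0243 TPM, and their ranges overlapped. In *rpb-9* libraries the top 3 were the same, with overlapping ranges of *csr-1* and *ergo-1*, but *wago-4* was sixth with 46.2 ± 8.32 TPM, after *ppw-2* (66.1 ± 7.27) and *ppw-1* (55.6 ± 13.5), whose ranges overlapped each other. The *wago-4* range overlapped that of *ppw-1* but not that of *ppw-2*. In Ribo-Zero libraries *wago-1* and *csr-1* again led in wild type, with 51.7 ± 11.7 and 19.2 ± 2.83 TPM, and *alg-4* and *alg-3* were again last, with 0.384 and 0.357 TPM and overlapping ranges. *ppw-2* held the fourth place there with 10.4 ± 1.77 TPM and the third in *prg-1* with 20.8 ± 7.03. In both genotypes its range overlapped that of the next gene. The *prg-1* mean of *ppw-2* was raised by the third library, with 28.9 TPM against 17.4 and 16.1 in the others. TPM were not scaled with TMM factors, so they rank genes within a genotype and are not fold changes between genotypes. With TMM factors the log2 fold change of *ppw-2* in *prg-1* was 0.58 (SE 0.13).

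Genes that act with these Argonautes also had negative medians in *rpb-9* polyA libraries. Of the 13 other Argonaute genes counted, 0 were higher and 5 lower at an adjusted p under 0.01, where 11.1% of all genes were lower, with a median log2 fold change of −0.38, against −0.50 over the 10 members and 0.14 over all genes. The lower ones included *wago-5* (−0.87) and *hrde-1* (−0.58), and *prg-2*, annotated as a pseudogene (−1.08). Of 4 partners of CSR-1 in its 22G siRNA pathway, *ego-1*, which encodes the RNA-dependent RNA polymerase of that pathway, was lower (−0.74, adjusted p = 0.0032, edgeR), and the median was −0.49. Of 7 factors that make 26G siRNAs, *rrf-3*, the polymerase gene of that pathway, was lower (−0.63) and 0 were higher, a share near that of all genes, with a median of −0.34. Of 14 factors that amplify 22G siRNAs, 6 were lower and 0 higher, with a median of −0.38, led by *mut-16* (−0.72), which encodes the scaffold of mutator foci, *nyn-1* (−0.64) and *mut-14* (−0.62). Of 7 granule genes, 3 were lower and 0 higher, with a median of −0.66. These were *deps-1* (−0.82), *pgl-3* (−0.80) and *pgl-1* (−0.57), all P granule components. In *prg-1* Ribo-Zero libraries, the medians of these 5 lists lay between −0.23 and −0.11, against 0.02 over all genes, and only *prg-1* itself passed the test (−1.53).

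Transcripts of the oocyte and germline lists were lower along with the lower members. At an adjusted p under 0.01, 11.1% of all genes were lower and 18.3% higher in *rpb-9*. Of 17 oocyte genes, 16 were lower and 0 higher by this test, with a median log2 fold change of −0.78. Their summed level was 20718 to 21765 CPM in wild type and 10669 to 13028 in *rpb-9*. Of 18 genes of the mitotic and meiotic germline, 10 were lower and 0 higher, with a median of −0.49 and summed levels of 3602 to 3735 and 2079 to 2499 CPM. The 10 members together had 2832 to 3010 CPM in wild type and 1423 to 2068 in *rpb-9*, with the first *rpb-9* library lowest for the members and for both lists. No oocyte or germline gene was at 0 in any polyA library. Of 8 body wall muscle genes, 4 were higher and 0 lower, with summed levels of 1121 to 1429 CPM in wild type and 1863 to 2746 in *rpb-9*. The summed level of 9 intestine genes was 72062 to 84350 CPM in wild type and 30253 to 59693 in *rpb-9*, while 1 of these genes was higher and 0 lower by the test. In Ribo-Zero libraries the summed level of the oocyte genes was 6275 to 8399 CPM for wild type, against 4806 to 6716 for *prg-1*. The part of germline content in the lower levels of *csr-1*, *wago-1* and *wago-4* was not tested.

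**Figure D4:**
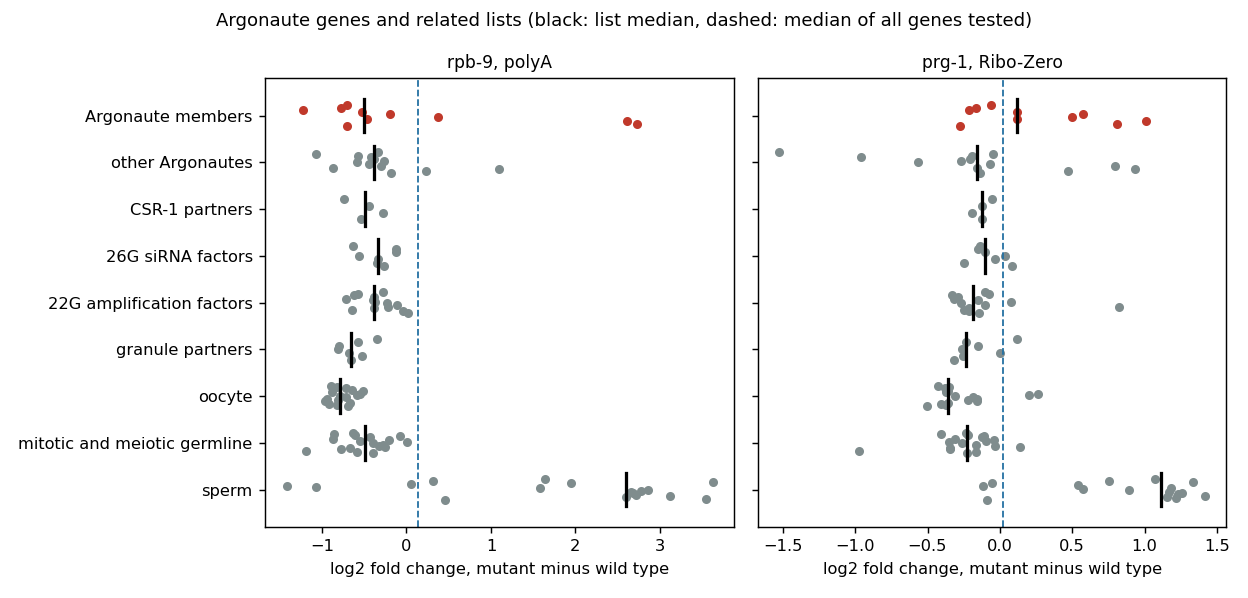
Log2 fold changes (mutant minus wild type) of the tested genes of each list in *rpb-9* polyA libraries (left) and *prg-1* Ribo-Zero libraries (right), with the 10 Argonaute genes in red, list medians as black bars and the median of all genes tested as a dashed line. On the left, 7 Argonaute genes lie below 0 with the germline lists, and *alg-3* and *alg-4* lie among the sperm genes at 2.61 and 2.73. *wago-4* at −1.23 (SE 0.12) lies close to the lowest germline gene at −1.19, and the difference between them was not tested.

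Likeness to single genes was measured as the root mean square difference of log2 CPM over the 12 libraries, after each table was centred on its wild-type mean, among 11354 genes tested in both tables. *csr-1* was most like *glp-4* (0.0667), *xrn-2* (0.0738) and WBGene00007578 (0.0757). *alg-3* was most like *K07A1.5* (0.209), *C10G11.8* (0.239) and *C27D8.1* (0.259), and *alg-4* was sixth in its order (0.280). *alg-4* was most like *nsph-3.2* (0.172), *ssq-4* (0.174) and *ttbk-2.2* (0.206), and *alg-3* was 19th in its order. These 6 genes had log2 fold changes of 2.47 to 3.03 in *rpb-9* and 0.86 to 1.44 in *prg-1*, which follows from how they were chosen. The values over the 12 libraries share their depth and library kit within a table, and the order is a description.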

How the data were processed

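For both tables the authors deposited expected counts per gene without normalization, from single-end reads of 50 bases aligned to ce11 (with the sensor as an extra chromosome) by STAR, end to end and without introns, and counted on exons by featureCounts, with reads matching several places split into fractions. Reads across exon junctions were therefore not aligned, and no strand option is named. Columns carry strain names, and the strain shared by the tables was taken as wild type. A further 24 columns of counts whose names match no label were not used. The labels list 2 lanes for each Ribo-Zero library, which has 1 column.

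Rounded counts were fitted in edgeR 4.0.16 (R 4.3.3) by quasi-likelihood with TMM factors and a term for genotype, over genes reaching 10 counts in 3 libraries, with Benjamini-Hochberg adjustment over all of them. Standard errors were derived from the log2 fold change and its F statistic. CPM are TMM-scaled, and TPM use the exon lengths deposited. The tests were also run on simulated counts, with the same setting for the spread of every gene and no library that stood apart. That run does not cover the libraries that stood apart here. Alternatives were DESeq2 1.42.0, its size factors, scaling by library size, removal of ribosomal RNA genes, no filter, the replicate number as a block and leaving out each library. Leaving out both Ribo-Zero libraries numbered 3 was chosen after seeing the data.

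The correlations of deviations from the genotype mean between libraries of the same number were 0.179, 0.353 and 0.441 in the Ribo-Zero table. Between different numbers they were 0.322 (wild type 1, *prg-1* 2) and 0.137 (wild type 2, *prg-1* 1). With a library numbered 3 and a library of another number they were −0.496 to −0.232. These values set the libraries numbered 3 apart but do not show that the numbers pair libraries 1 and 2. The column names do not say what libraries of a number share, and the number as a block was run as an alternative. In the polyA table the correlations between libraries of the same number were 0.0822, 0.0732 and −0.037, and its numbers were not taken to pair the libraries.

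The members, lists and named genes were chosen with earlier results of these data known. All 10 members are named, beside, for each list of other Argonautes or their partners, genes that passed the test with the largest change. Genes of the tissue lists were named after their values were seen. Gene positions and sequences come from WBcel235 with Ensembl annotation 115, 1-based. *prg-2*, *wago-2* and *wago-11* were matched by position.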

Additional observations from a re-analysis of the deposited data

How the results depend on the processing

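The count of 3 misregulated Argonaute genes in *rpb-9* was unchanged by DESeq2, its size factors, removal of ribosomal RNA genes, no filter, the replicate block (3) and leaving out any 1 library (3 to 3), and was 2 with scaling by library size, which took *wago-4* to −0.98. The count lower at an adjusted p under 0.01, 3 in edgeR's test, was 6 with DESeq2 and with no filter, 3 with the replicate block, which lost *csr-1* (adjusted p = 0.0123) and gained *ergo-1* (adjusted p = 0.0092), and 2 to 6 with 1 library left out, the most without *rpb-9* replicate 1. In *prg-1*, 0 members were misregulated under every alternative run with all libraries or with 1 left out (0 to 0 in the latter). Without both libraries numbered 3, 1 member was. When any 1 library other than *prg-1* replicate 3 was left out, 0 genes of the whole table were misregulated. The count of 0 members was the only possible one there. The replicate block, which groups the Ribo-Zero libraries by number, changed no call of a member at an adjusted p under 0.01. For the difference of the effects the count was 0 to 1 with 1 library left out, the 1 being *wago-4* (−1.07) without *rpb-9* replicate 2. The direction changed for *ppw-2* in *rpb-9* (0.057 with scaling by library size), for *csr-1* in *prg-1* (0.055 with scaling by library size, 0.019 without both libraries numbered 3, and −0.084 to 0.015 with 1 library left out, the highest without *prg-1* replicate 3) and for the difference of *sago-1* (−0.21 to 0.10 with 1 library left out, above 0 without *rpb-9* replicate 1 and without *prg-1* replicate 3), none of which passed a threshold in either direction. The cause was not tested. Misregulated genes over the whole Ribo-Zero table numbered 14 in edgeR's test, 335 with DESeq2, 724 with no filter, 21 with the replicate block, 22 with scaling by library size, 802 without both libraries numbered 3, and 0 to 547 with 1 library left out. In the polyA table they numbered 2179 (1966 higher and 213 lower), 3214 with scaling by library size (3090 and 124), 3182 with no filter and 1132 to 2081 with 1 library left out. *alg-3* and *alg-4* had at most 15 counts per wild-type polyA library, which limits the precision of their fold changes.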
